A study of Mus musculus with 12 samples.

Results

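The normal LSK compartment of mouse bone marrow was described from 3 RNA-seq libraries, which were 3 of the 12 libraries of the series and all of those named wtLSK. LSK stands for lineage-negative, Sca-1-positive and c-Kit-positive. Per the labels, marrow of control C57BL/6 mice (genotype wild type/control) was depleted of lineage-positive cells, and c-kit and Sca-1 were then used to sort cells by FACS. No treatment is named for the control mice, and the labels give neither their age nor the mouse behind each library, only that 3 animals were used per genotype. The spread between these libraries may therefore be biological or technical. The other 9 libraries hold leukemic marrow of iMLL-ENL mice and were not compared here. A PicoPure kit served for RNA isolation, and the NuGen Ovation libraries do not keep the strand.

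The LSK gate collects hematopoietic stem cells together with the multipotent progenitors that descend from them. Stem cells in it divide rarely and multipotent progenitors divide more often, and both carry low levels of transcripts of several blood lineages, a state called lineage priming. Some multipotent progenitors lean toward megakaryocyte and erythroid fates, some toward granulocytes and macrophages, and some, rich in Flt3, toward lymphocytes. A bulk library averages all of them, so fewer cells of a type and less RNA per cell cannot be told apart.

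Library totals were 18618945 counts in replicate 1, 18227843 in replicate 2 and 19607722 in replicate 3. Levels are given as CPM, the counts scaled to a library total of 1000000, which favour long genes, or as TPM, the counts per kilobase of the deposited gene width scaled to the same total, which allow genes to be set side by side. Values in threes run from replicate 1 to replicate 3, and errors are SD with n = 3. Of 24028 genes, 15035 had at least 1 count in every library and 12931 (53.8%) had over 1 TPM in every library, while 6195 had 0 counts in all. A count of 0 in all libraries allows up to 0.0531 CPM, which is 3 counts over the 3 libraries together and covers counting error only. The median over all genes was 4.14 TPM, and 61 genes reached 1000 TPM. The libraries differed by more than sampling noise, since the mean chi-square of their counts, near 1 for sampling noise alone, was 47.4 for replicates 1 and 2, 29.9 for 1 and 3 and 44.2 for 2 and 3. Replicate 2 stood apart, with higher levels of genes of mature and lymphoid cells, and replicate 3 had lower levels of immediate early genes. Medians of the lists that moved most are given with and without these libraries. With a single group no test was made, and all gene lists are described by their levels.

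The sort markers were present in all libraries. Kit, the stem cell factor receptor c-Kit, was at 754, 647 and 920.0 TPM. Ly6a, which encodes Sca-1, was at 127, 284 and 174 TPM. Kit was highest in replicate 3 and Ly6a in replicate 2, and 31.9% of the 31-base words of Ly6a recur in other annotated genes, so its level is uncertain. Ptprc, the pan-leukocyte phosphatase CD45, was at 319, 325 and 306 TPM, nearly level across the libraries. Cd34, a sialomucin of stem and progenitor cells, was at 769.7, 795 and 861 TPM. The long noncoding gene Gm16897 overlaps Cd34, and without strand their reads cannot be told apart.

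Genes of the lineage-positive cells that the depletion removes were still read. Of 11 such genes 10 were in the table, with a median of 5.40 TPM beside 4.14 TPM over all genes, and 9 of the 10 were over 1 TPM in every library, against 53.8% of all genes. Itgam, the myeloid integrin CD11b, was highest at 59.0, 67.3 and 54.8 TPM, but 68.3% of its 31-base words recur in other annotated genes, so this level is uncertain. Il7r, the interleukin 7 receptor of lymphoid progenitors, was at 27.7, 91.9 and 21.7 TPM. Il7r was highest in replicate 2, and without that library the list's median was 3.91 TPM. The T cell gene Cd3e was at 1.03, 17.4 and 0.682 TPM, nearly all of it in replicate 2, and Cd4 had a mean of 14.0 ± 4.55 TPM. The T cell gene Cd8a was at 1.14, 2.62 and 1.38 TPM. The Y-linked genes Kdm5d, Uty and Eif2s3y had 0 counts in all libraries, while Xist was abundant in each.

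By counts, 2 long nuclear RNAs led the libraries. Xist, the RNA that coats the inactive X chromosome (chrX:103460373-103483233 on GRCm38), was at 16505 ± 1486 CPM. Malat1, a nuclear speckle RNA, was at 9731 ± 1697 CPM. Xist shares its span with its antisense partner Tsix, and long noncoding RNA genes together held 4.02% ± 0.33 of the counts against 95.4% ± 0.32 for protein-coding genes. B2m, the light chain of MHC class I, came next at 4685 ± 583 CPM. Srrm2, a splicing coactivator, was at 3142 ± 209 CPM. Serinc3, a membrane protein, was at 2947 ± 343 CPM and Mki67, the proliferation antigen gene, at 2460.3 ± 334. The chaperone Hsp90ab1, the splicing regulator Mbnl1, the adaptor Ywhaz, the translation factor Eif4g2, the nucleolar protein gene Ncl and the RNA helicase Ddx5 completed the leading 12, from 2258 down to 2055 CPM. Counts were spread over many genes: Xist held 1.65% of them and the leading 100 genes 15.3%. Annotated spans of other genes overlap B2m, Srrm2, Serinc3, Ncl and Ddx5, and 21.1% of the 31-base words of Ddx5 recur elsewhere.

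Per kilobase the order changed. B2m led at 19924, 21686 and 19420.4 TPM, far above every other protein-coding gene. Rpl4, a large-subunit ribosomal protein, was at 3462, 4386 and 3551 TPM. Atp5b, the catalytic ATP synthase subunit, was at 3789.9, 3548 and 3909.9 TPM. By their means both were below Malat1, at 5259 ± 1217 TPM, and above Xist, at 3463 ± 517. Srgn, the proteoglycan core of storage granules, was at 3339 ± 471 TPM, between Hsp90ab1 at 3369.5 and Serinc3 at 2973. The splicing factor Srsf2 was at 2286 ± 153 TPM. Fos, an immediate early transcription factor, was at 3010.0, 3347 and 1004 TPM, the widest spread of these protein-coding genes, with replicate 3 alone low. The 100 genes leading by CPM and the 100 leading by TPM shared 49. The first set had a median width of 6236 bases and the second 2187, against 2411 for all genes.

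**Figure D1:**
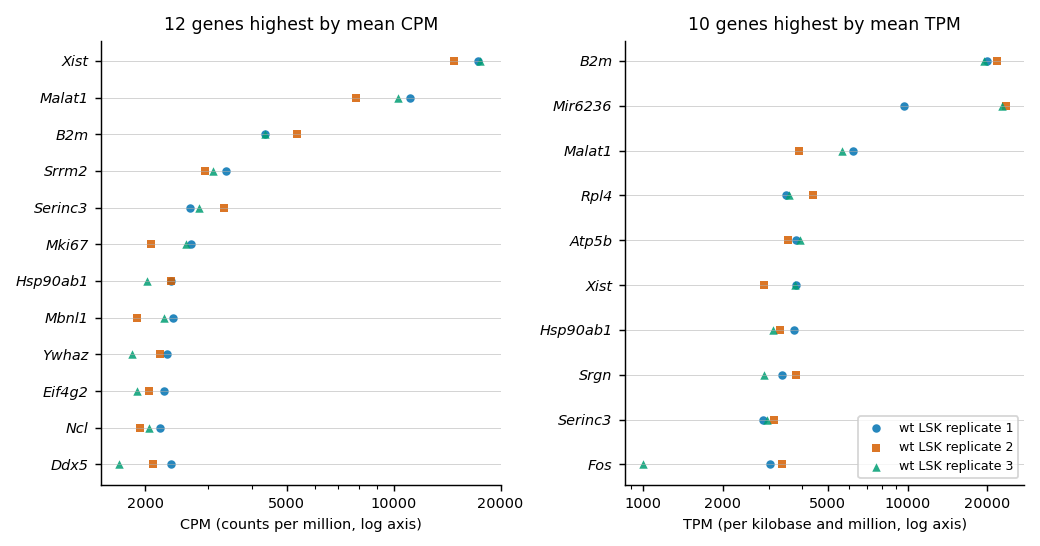
Levels of the 12 genes highest by mean CPM (left) and the 10 highest by mean TPM (right) on log axes, with 1 marker per library. Replicate 2 was lowest for Xist and Malat1 and highest for B2m, replicate 3 was lowest for Fos, and Mir6236 was lowest in replicate 1.

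A short hairpin gene, Mir6236, was second by TPM. It had 5672, 15218 and 14238 counts over a width of 123 bases, which made 9715, 23569.6 and 22675 TPM, with replicate 1 far below the others. Genes under 300 bases wide, 1224 in all, held 0.118% of the counts and 4.23% of the TPM total. Their counts cover the hairpin gene, or a host gene around it, and do not measure the mature miRNA. Of 1063 miRNA genes, 541 had a count, and 489 of these lie within the span of another gene. The mature sequences of the 4 miRNA genes highest by TPM, from RefSeq on GRCm38.p6, are shown because 3 of these genes sit inside abundant mRNA genes, with the seed (bases 2 to 8) in capitals.
mmu-miR-6236: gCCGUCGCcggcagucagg
mmu-miR-3064-3p: uGCCACACugcaacaccuuaca
mmu-miR-3064-5p: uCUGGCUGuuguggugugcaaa
mmu-miR-546: aUGGUGGCacggaguc
mmu-miR-8094: aACUGAAGgacaacgagaaga
No seed was shared among them. Mir3064 (chr11:106782693-106782759) lies in the RNA helicase gene Ddx5 and was at 1663, 1197 and 965 TPM. Mir546 (chr10:126998440-126998560) lies in the phosphatase gene Ctdsp2 and was at 811, 834 and 897 TPM. Mir8094 (chr17:35251289-35251405) lies in the splicing helicase gene Ddx39b and was at 654, 569.9 and 531 TPM. Each of their mature sequences also occurs in a GENCODE transcript of the host gene. That of miR-6236 occurred in no GENCODE gene other than Mir6236 (chr9:110281287-110281409), which no other gene of the table overlaps. Sequences outside GENCODE transcripts were not searched, so whether the reads counted for Mir6236 come from that hairpin gene is not known. Small nucleolar RNA genes, which guide chemical modification of ribosomal RNA, held 1.03% ± 0.0491 of the TPM total. The highest were Snord22, within Snhg1, at 1381, 1229 and 1116 TPM and Snora31, within Tpt1, at 1569, 1247 and 892.

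Among the families of protein-coding genes examined, MHC class I held the most, 2.37% ± 0.121 of the TPM total over 24 genes. Of these, 14 were over 1 TPM in every library (53.8% of all genes were). B2m made up most of the share, and 0% of its 31-base words recur in other genes. The lead over ribosomal protein genes, at 1.93% ± 0.460, is uncertain, since a median of 27.6% of their words recur. H2-K1, a classical class I heavy chain, was at 1808, 1954 and 1940.4 TPM. H2-D1, the other classical one, was at 572, 684 and 547 TPM, well below H2-K1 in every library. These heavy chains resemble each other, and 22.8% of the 31-base words of H2-K1 recur in other genes.

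Ribosomal protein genes held 1.93% ± 0.460 over 87 genes, 84 of them over 1 TPM in every library. Their share was 1.61%, 2.46% and 1.74%, highest in replicate 2, and 1.67% without that library. Rpl8, a large-subunit protein like Rpl4, was at 805, 1538 and 1122 TPM. These levels are uncertain, because a median of 27.6% of a ribosomal protein gene's 31-base words recur in other annotated genes, against 1.53% over all genes with a value. The share was 0.655% over the genes with under 10% of recurring words. That cut leaves out most genes of the family, so the lower sum does not show how far recurring words affect the level.

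Heat shock proteins and chaperonins held 1.70%, 1.42% and 1.37%, led by Hsp90ab1. Hspa5, the chaperone BiP of the endoplasmic reticulum, was at 2851, 1547 and 1284 TPM, highest in replicate 1. Hsp90b1, its partner in the same compartment, was at 1600.1, 1444 and 1436 TPM, close among the libraries. Respiratory chain and ATP synthase subunits encoded in the nucleus held 1.23% ± 0.133, with 77 of 85 genes over 1 TPM in every library. Below Atp5b stood the ATP synthase subunits Atp5a1 at 844 ± 41.3 TPM and Atp5g3 at 600.2 ± 107. No mitochondrially encoded gene was in the table.

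Translation initiation factors held 0.966% ± 0.0266, led by Eif4g2, Eif4a2 and Eif3a, with a spread far smaller than that of the ribosomal proteins. Elongation factors held 0.405% ± 0.0746, and Eef1a1, which delivers tRNAs to the ribosome, was at 1665, 2532 and 1821 TPM. The RNA-binding hnRNP proteins held 0.873% ± 0.0542, all 20 genes being over 1 TPM in every library, and Hnrnpa2b1 was their highest at 1642, 1603 and 1469.9 TPM. The 11 SR splicing factors held 0.653% ± 0.0314. Both groups of pre-mRNA binding proteins varied little among the libraries.

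Actins, tubulins and small actin regulators held 0.716% ± 0.110. Tmsb4x, which binds actin monomers, was at 1685, 2781 and 1468 TPM, highest in replicate 2. Actb was at 1340.0, 1652 and 1444 TPM and Tubb5 at 1346, 1304 and 1698. Proteasome subunits held 0.646% ± 0.0820, with 44 of 45 over 1 TPM in every library. Their highest member was the activator subunit Psme1 at 447, 666 and 553 TPM, and the immunoproteasome subunit Psmb8 was at 218, 396 and 312.

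Several families had little of the total. Of 1107 olfactory receptor genes, 985 had 0 counts in all libraries and 8 were over 1 TPM in every library. Keratins had 43 of 54 genes at 0, and Krt18, an epithelial keratin, was the highest at 25.0, 38.4 and 30.8 TPM. Globins held 0.00184% ± 0.00123 of the TPM total, and the adult chain Hbb-b2 was at 6.02, 31.1 and 9.64 TPM. Replication-dependent histones, whose mRNAs lack a poly(A) tail, held 0.122% ± 0.0365. Of these, 31 of 57 were over 1 TPM in every library, near the 53.8% of all genes. The linker histone gene H1f4 was highest at 113, 279 and 231 TPM, lowest in replicate 1.

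Gapdh, a glycolytic enzyme often used as a reference gene, was at 13.4 ± 0.802 TPM. Its level is uncertain, because 28.1% of its 31-base words recur in other annotated genes. Ppia, another such reference, was at 18.4, 14.3 and 15.8 TPM, also far below Actb. How reads that match several places were counted is not given. These values therefore do not show that Gapdh and Ppia were scarcely expressed.

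Transcription factors that maintain blood stem cells were abundant. All 22 listed factors were over 1 TPM in every library (53.8% of all genes were), with a median of 163 TPM. Egr1, an immediate early zinc finger factor also tied to stem cell quiescence, was at 2986, 1596 and 578 TPM, highest in replicate 1 and lowest in replicate 3. Lmo2, a bridging subunit of stem cell factor complexes, was at 1373, 1529 and 1533 TPM. The ETS factor Etv6 was at 685, 538 and 679 TPM and the PAR bZIP factor Hlf at 603, 439 and 659.6. Lmo2 was nearly level across the libraries, while Etv6 and Hlf were lowest in replicate 2. Mecom, a zinc finger regulator of long-term stem cells, was at 80.7, 41.1 and 78.7 TPM, also lowest in replicate 2. Prdm16, its relative, was at 15.8, 11.5 and 16.8 TPM. The homeobox gene Nkx2-3 was at 12.3, 11.3 and 10.9 TPM, and Hoxb5, the lowest member, was at 1.44, 4.02 and 8.06. Without replicate 2 the list's median was 174 TPM.

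The Hox genes, homeobox factors that pattern the embryo and act in blood stem cells, were read mainly from the Hoxa cluster. Hoxa9 was highest at 94.9, 110.4 and 88.8 TPM. Hoxa5 was at 73.7, 116 and 72.7 TPM, highest in replicate 2. Hoxa7 was at 37.4, 34.8 and 42.3 TPM and Hoxa6 at 31.4 ± 8.84. In all, 8 of 11 Hoxa genes were over 1 TPM in every library, against 53.8% of all genes. Hoxa3, Hoxa2, Hoxa10 and Hoxa4 had means from 7.49 to 19.7 TPM. Hoxa11 had a mean of 0.0891 TPM, and Hoxa13 had 0 counts in all. In the Hoxb cluster 4 of 10 genes passed 1 TPM in every library, against the same 53.8% of all genes. Hoxb4, known to expand stem cells, was at 21.0, 18.2 and 24.2 TPM and Hoxb3 at 14.7, 13.3 and 10.5, and the means of the other 8 genes ran from 0 to 4.51. Of 9 Hoxc genes 6 had 0 counts in all libraries, as did 7 of 9 Hoxd genes, and the highest value of any of them was 0.781 TPM, for Hoxd8 in replicate 1. Annotated spans of neighbouring Hox genes overlap Hoxa3, Hoxa4, Hoxa5, Hoxa6, Hoxb3 and Hoxb4, so reads of these neighbours cannot be fully told apart.

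Surface genes that divide the LSK gate into stem cells and multipotent progenitors spanned a wide range. All 20 were over 1 TPM in every library (53.8% of all genes were), with a median of 49.9 TPM. Cd27, a TNF receptor family member of multipotent progenitors, was at 617, 712 and 674 TPM. Cd48, a SLAM family member that purified stem cells lack, was at 543, 728 and 505 TPM. Both of these, like Flt3, the cytokine receptor of lymphoid-primed progenitors, at 414, 464 and 356 TPM, were highest in replicate 2. Slamf1 (CD150), a SLAM marker of stem cells, was at 18.7, 18.2 and 25.2 TPM, far below Cd48.

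Genes listed as restricted to stem cells had a lower median, 15.7 TPM. Of these, 20 of 22 passed 1 TPM in every library, against 53.8% of all genes. Ifitm3, an antiviral membrane protein, led the list at 814, 975 and 690.1 TPM, and 20.5% of its 31-base words recur in other annotated genes. Its neighbour Ifitm1 was at 98.3, 225 and 125 TPM, highest in replicate 2. The detoxifying enzyme Gstm1 was at 126 ± 34.6 TPM and the lipoprotein receptor Vldlr at 109 ± 26.1. Procr, the stem cell marker EPCR, was at 24.5, 45.4 and 30.9 TPM, and Vwf, the von Willebrand factor gene of platelet-biased stem cells, was at 4.10, 5.37 and 8.22 TPM. The list's median without replicate 2 was 16.0 TPM.

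Lineage priming was uneven across the blood lineages. By the median over list members, lymphoid priming genes were highest at 187 TPM, then genes of granulocyte-macrophage progenitors at 64.5, megakaryocyte and platelet genes at 20.3, genes of eosinophils, basophils and mast cells at 7.79, and erythroid genes at 6.22, near the 4.14 TPM of all genes. The members over 1 TPM in every library were 15 of 15, 17 of 18, 16 of 18, 9 of 14 and 13 of 18 in the same order, against 53.8% of all genes. The lists differ in how broadly their members are expressed, and these medians describe the lists as chosen. Without replicate 2 the order of the first 3 was kept, at 125, 51.6 and 22.5 TPM, and the last pair changed places, at 5.43 and 6.61.

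**Figure D2:**
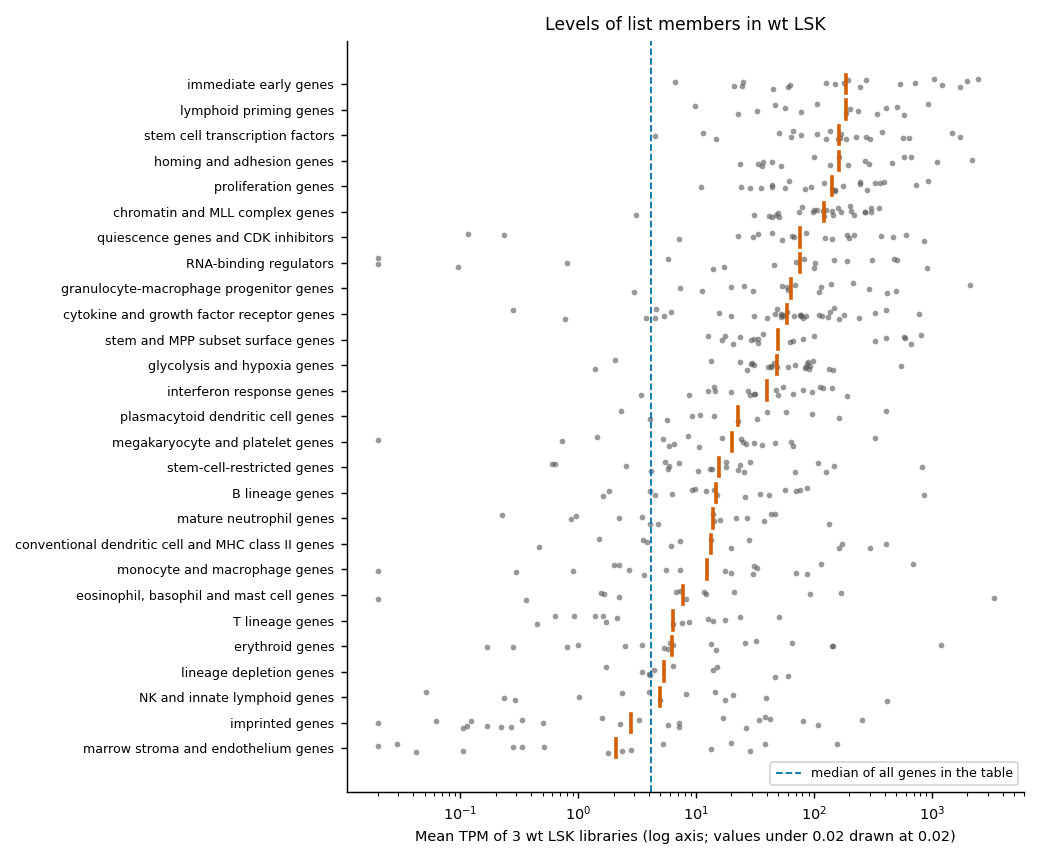
Mean TPM of the 3 libraries for each member of 27 gene lists (grey points, log axis), with the list medians as orange bars and the median of all genes as a dashed line. Genes of the immediate early, lymphoid priming, stem cell factor, and homing and adhesion lists had medians above 150 TPM. Marrow stroma and endothelium genes had the lowest median of the lists drawn, 2.08 TPM.

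Lymphoid priming was led by Dntt, the terminal transferase that adds bases at V(D)J junctions, at 573, 1716 and 473 TPM. By CPM, Dntt was over 3 times higher in replicate 2 than in both others, but not after the correction for gene width described below. Ikzf1, a zinc finger regulator of lymphoid fate, was at 524, 529 and 466 TPM. Mef2c, a factor of lymphoid progenitors, was at 379, 303 and 341 TPM. Ikzf1, Mef2c and Flt3 showed no such excess in replicate 2. Rag2, a subunit of the V(D)J recombinase, was at 41.8, 96.0 and 31.9 TPM. Its partner Rag1 was at 6.16, 21.3 and 1.85 TPM. The early lymphoid marker Ly6d was at 2.13, 89.9 and 6.24 TPM, nearly all of it in replicate 2.

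Granulocyte-macrophage priming was led by Mpo, the azurophil granule peroxidase, at 1784, 2446 and 2058 TPM. Calr, an endoplasmic reticulum chaperone of most cells, was at 495, 478 and 503 TPM, level across the libraries. Nkg7, a granule membrane protein, was at 303, 618 and 341 TPM. Ctsg, a granule protease, was at 194, 407 and 283 TPM. The azurophil protease genes Prtn3, at 112, 299 and 233 TPM, and Elane, at 58.6, 286 and 76.4, were also highest in replicate 2. Of the lineage factors, Spi1 (PU.1), at 101, 140.1 and 102 TPM, and Cebpa, at 21.1, 27.9 and 27.7, differed less. Irf8, another factor of this list, did not, at 35.3, 106 and 38.6 TPM. Cebpe, which acts later in granule formation, was at 0.170, 7.39 and 1.42 TPM, below Cebpa in every library.

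Among megakaryocyte and platelet genes, the tetraspanin Cd9 had a mean of 66.0 ± 12.8 TPM and the selectin Selp was at 52.7, 70.8 and 69.6. Thbs1, a matrix protein of platelet granules, was at 46.4, 8.70 and 86.4 TPM. It was lower in replicate 2 than in both others by over 3 times, as were 7 of 10647 genes (0.0657%) with a mean of at least 5 CPM. Pf4, a platelet chemokine, had a mean of 36.1 ± 15.3 TPM, and Itga2b (CD41), the platelet integrin chain, was at 18.6, 12.4 and 19.1 TPM. Gp6, the platelet collagen receptor, had 0 counts in all libraries.

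Erythroid genes were led by Car2, a carbonic anhydrase, at 1159.9, 1149 and 1264 TPM. The transferrin receptor gene Tfrc was at 149, 167 and 119.8 TPM. Nfe2, a bZIP factor of erythroid cells and megakaryocytes, was at 129, 128 and 172 TPM, and Hemgn at 68.7, 52.2 and 73.6. The lineage factors were lower, with Gata1 at 15.9, 13.4 and 15.1 TPM and Klf1 at 6.32, 6.33 and 6.64. Epor, the erythropoietin receptor, was at 4.89, 3.21 and 8.05 TPM. Slc4a1, the anion exchanger of red cells, was at 0.278, 0.837 and 1.89 TPM.

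Among genes of eosinophils, basophils and mast cells, Srgn led at 3356, 3801 and 2859 TPM, but it is expressed in many blood cells. Gata2, which also serves stem cells, was at 182, 151 and 176 TPM. Cpa3, the mast cell carboxypeptidase, was at 95.6, 84.7 and 96.5 TPM. The basophil protease Mcpt8 was at 13.7, 27.8 and 21.6 TPM. The means of the other 10 members were lower still, and the mast cell tryptase Tpsab1 had 0 counts in all libraries.

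Genes of mature and committed cells had low medians with a few high members. B lineage genes had a median of 14.6 TPM. Cd24a, which is widely expressed, was at 771, 1004 and 778 TPM. The B cell co-receptor gene Cd72 was at 88.0, 95.6 and 78.1 TPM. Cd79b, a signalling chain of the B cell receptor, was at 49.9, 120.4 and 57.2 TPM and the surrogate light chain Igll1 at 7.75, 185 and 17.8. Cd72 was level across the libraries, whereas Igll1 was read mostly in replicate 2. T lineage genes had a median of 6.36 TPM, led by the signalling adaptor Lat at 52.9, 62.7 and 37.0 TPM. The kinase Lck was at 15.7, 34.9 and 19.8 TPM and the factor Tcf7 at 14.7, 28.4 and 9.56. NK and innate lymphoid genes had a median of 4.91 TPM. Below Nkg7 stood Id2, a factor of innate lymphoid cells, at 37.9, 58.9 and 20.2 TPM, the receptor Il18r1 at a mean of 20.7 and the NK receptor Klrd1 at 6.15, 41.8 and 4.66. Lck, Tcf7, Id2 and Klrd1 were all highest in replicate 2.

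Mature neutrophil genes had a median of 14.1 TPM. S100a9, a calprotectin subunit, was at 41.0, 351 and 10.8 TPM. S100a8, the other subunit, was at 23.6, 111 and 6.50 TPM. The granule protein gene Ngp was at 10.9, 93.9 and 8.44 TPM. Replicate 2 was far above the others for all of them, but not for the deiminase gene Padi4, at 38.2, 44.6 and 46.8 TPM. Of the monocyte and macrophage genes, Lyz2, a lysozyme, was at 499, 992 and 589 TPM and Ctss, a cathepsin, at 66.8, 209 and 68.3. Cd68, a lysosomal protein, was at 95.8, 104 and 64.7 TPM and Ly86, a partner of a Toll-like receptor relative, at 29.6, 155 and 28.9. The complement gene C1qa had 0 counts in all libraries.

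Plasmacytoid dendritic cell genes had a median of 22.5 TPM. Runx2, a Runt factor, was at 429, 421 and 382 TPM and Tcf4, the lineage's defining E protein, at 154, 187 and 144. Bst2 (tetherin) was at 74.3, 132 and 80.3 TPM and the RNA sensor Tlr7 at 54.9, 87.1 and 30.8. Among the genes of conventional dendritic cells and MHC class II, the invariant chain Cd74 was at 164, 558 and 178 TPM. The class II chains H2-Ab1 and H2-Aa were at 116, 257 and 143 TPM and at 108, 238 and 145 TPM. Cd74 and both chains were highest in replicate 2, and Runx2 was level.

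Stroma and endothelium genes had a median of 2.08 TPM, and 7 of 16 were over 1 TPM in every library (53.8% of all genes). Pecam1, an adhesion molecule shared by endothelium and blood progenitors, was at 142, 164 and 163 TPM. The PDGF receptor gene Pdgfrb was at 38.5 ± 5.28 TPM, the sialomucin gene Emcn, also expressed by stem cells, at 28.6 ± 2.45 and the proteoglycan gene Bgn at 19.9 ± 6.44. The niche factors Cxcl12, at 0.441, 0.559 and 0.547 TPM, and Kitl, at 0.149, 0.101 and 0.0694, and the collagen gene Col1a1, at 0.0448, 0.0811 and 0, were near 0.

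Cell division genes were high in all libraries. The 23 proliferation genes had a median of 142 TPM and all were over 1 TPM in every library (53.8% of all genes). Mki67 was at 1047, 716 and 996 TPM. Top2a, the topoisomerase of dividing cells, was at 829, 555 and 833 TPM. Mcm6, a subunit of the replicative helicase, was at 406, 360.0 and 402 TPM and the cyclin Ccna2 at 380.4, 303 and 403. These 4 were lowest in replicate 2 by TPM. By CPM, 9 of the 23 list members were lowest in replicate 2, against 30.2% of all genes at 5 CPM or more, and 12 in replicate 1, against 46.1%.

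A list of quiescence genes and cell cycle regulators had a median of 76.4 TPM. Its highest member was Cdk6, a kinase that drives entry into the cycle, at 957, 603 and 1025 TPM. Cdk4, the related kinase, was at 388, 509.9 and 519.7 TPM. Txnip, which restrains glucose uptake, was at 494, 728 and 578 TPM and the antiproliferative gene Btg2 at 507, 426 and 188. The inhibitor gene Cdkn1b was at 119, 119 and 133 TPM, level across the libraries. Cdkn1c, known from quiescent stem cells, was at 3.91, 8.14 and 9.28 TPM, and Cdkn2a at 0.185, 0.168 and 0.

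Chromatin regulators were all present. The 27 genes of this list had a median of 122 TPM. All were over 1 TPM in every library, against 53.8% of all genes. Ezh2, the Polycomb methyltransferase, led at 412, 295 and 358 TPM. The remodeller Chd4 was at 348, 244 and 327 TPM. Kmt2a, the MLL gene itself, was at 363, 239.7 and 310.1 TPM and Psip1, which tethers MLL to chromatin, at 291, 241 and 288. Ezh2, Chd4, Kmt2a and Psip1 were all lowest in replicate 2. By CPM so were 18 of the 27 list members, against 30.2% of all genes at 5 CPM or more. The list's median log2 ratio of replicate 2 to the mean of the others was -0.13, against 0.09 over all genes. After the correction for gene width described below these were -0.09 and 0.0046. Mllt1, which encodes ENL, the partner in the fusion of the leukemic mice, was at 47.7, 42.3 and 42.7 TPM and its relative Mllt3 at 61.9, 36.3 and 53.8. Kmt2a was above Mllt1 in every library.

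Receptor genes for cytokines and growth factors had a median of 58.7 TPM. Of these, 33 of 35 were over 1 TPM in every library, against 53.8% of all genes. Kit and Flt3 stood above Ifnar2, an interferon receptor chain, at 223, 279 and 221 TPM. Lepr, the leptin receptor of marrow stroma, was lowest at 0.0274, 0.223 and 0.586 TPM.

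The libraries differed from each other by more than sampling. The common biological coefficient of variation (BCV), edgeR's estimate of the spread between libraries relative to the level, was 0.240 over 12923 genes, and with genes split by level into 5 groups of equal size, the median of its trend was 0.381 in the lowest group and 0.161 in the highest. Without replicate 2 it was 0.191, without replicate 1 it was 0.252 and without replicate 3 it was 0.263. Of 9283 genes with a mean of at least 10 CPM, 573 (6.17%) differed at least 2-fold between the highest and the lowest library, 137 at least 3-fold and 12 at least 10-fold. Replicate 2 was the highest library for 398 of the 573. Between replicates 1 and 3 alone 154 of the 9283 genes differed at least 2-fold, between 2 and 3 there were 272 and between 1 and 2 there were 388. Across the same genes, which are not independent replicates, Pearson's r of log2 CPM was 0.976 for replicates 1 and 3 and 0.958 for each pair with replicate 2.

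A part of the spread followed gene width. In the band of shortest genes, up to 1687 bases wide, the median log2 deviation from the gene mean was 0.30 in replicate 2, -0.23 in replicate 1 and -0.07 in replicate 3. In the band of the longest genes, from 7322 bases, it was -0.12, 0.04 and 0.07. Ribosomal protein genes, 75 of 87 of them in the shortest band, moved with it, and of the 65 at 5 CPM or more 40 were lowest in replicate 1 and highest in replicate 2, against 30.9% of all genes at that level. The part of width in the ribosomal protein difference was not tested. Ratios of a library to the others by gene list are therefore also given below after the median of the gene's width band was removed.

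**Figure D3:**
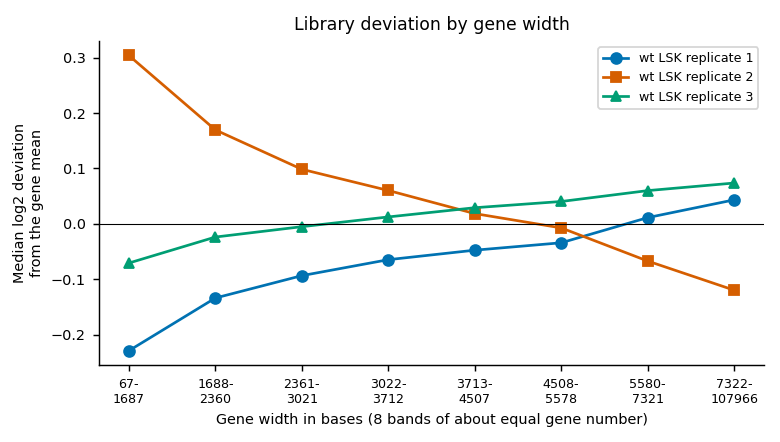
Median log2 deviation of each library from the gene mean (vertical axis) in 8 bands of gene width in bases (horizontal axis). Replicate 2 falls from 0.30 in the shortest band to -0.12 in the longest, and replicates 1 and 3 rise.

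Replicate 2 carried more transcripts of mature myeloid, B lineage and dendritic cells. Among 10647 genes with a mean of at least 5 CPM, 67 (0.629%) were over 3 times higher in replicate 2 than in both other libraries. After removal of the width median 59 (0.554%) were so, some of them not among the 67. Genes of the lists made up 25 of the 67. The share of list genes among all 10647 was not counted, and the lists were chosen with earlier results of these data known. The 25 are therefore not shown to be an excess. The largest ratio of the highest to the lowest library, 129, belonged to Jchain, the joining chain of polymeric antibodies, at 6.34, 818 and 66.3 CPM. Siglech, a lectin of plasmacytoid dendritic cells, was at 2.31, 74.7 and 5.41 CPM and the surrogate light chain Igll1 at 1.72, 46.4 and 4.03. In each of them replicate 2 was far above both others and replicate 3 was above replicate 1.

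By list, replicate 2 was ahead for genes of mature cells. All 7 neutrophil genes at 5 CPM or more were highest in replicate 2, against 46.2% of all such genes, with a median log2 ratio to the mean of the others of 3.29 (2.83 after removal of the width median). For B lineage genes it was 11 of 11, at 2.27 (2.44). For plasmacytoid dendritic cell genes it was 10 of 10, at 1.53 (1.47). Genes of MHC class II and conventional dendritic cells were highest in it for 9 of 9, at 1.15 (0.92), and monocyte and macrophage genes for 8 of 11, at 1.20 (1.12). Among progenitor lists, granulocyte-macrophage genes were highest in it for 15 of 16 at 0.78 (0.55) and lymphoid priming genes for 13 of 15 at 0.82 (0.999). Other lists moved the same way, so the shift was not confined to those above. T lineage genes were highest in replicate 2 for 7 of 7 at 0.77 (0.87). Stroma and endothelium genes were so for 6 of 7 at 0.31 (0.27) and cytokine receptor genes for 19 of 31 at 0.28 (0.26). The same ratio was -0.19 (-0.18) for megakaryocyte genes, -0.29 (-0.43) for erythroid genes and -0.10 (-0.13) for stem cell factors, beside 0.09 (0.0046) over all genes. The cut of 5 CPM is on the mean of the 3 libraries, so a gene can pass through replicate 2 alone. S100a8 did so at 2.36, 12.5 and 0.663 CPM. The cut kept 7 of 16 neutrophil, 11 of 18 B lineage and 10 of 13 plasmacytoid genes, and it partly fixes these counts and ratios. Without it, the list medians were 4.07, 24.9 and 2.41 TPM for neutrophil, 6.95, 32.9 and 5.39 for B lineage and 8.68, 42.1 and 8.66 for plasmacytoid genes.

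**Figure D4:**
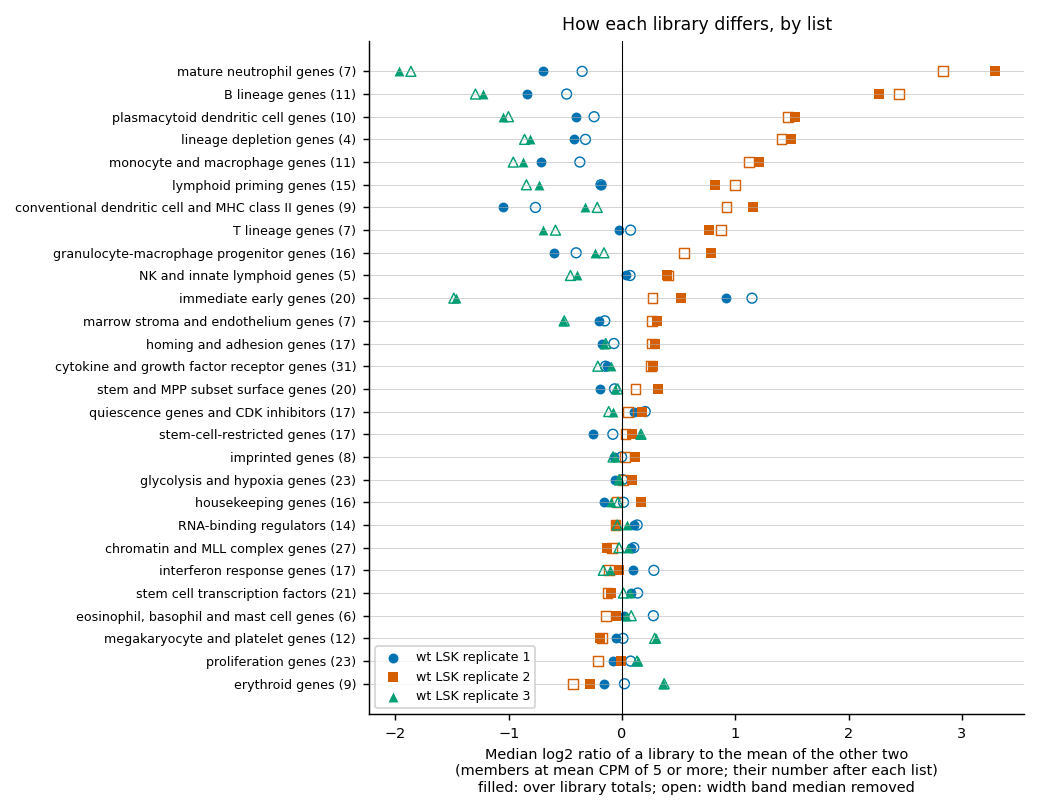
Median log2 ratio of each library to the mean of the other libraries (horizontal axis) for 28 gene lists, over library totals (filled) and after removal of the width band median (open). Replicate 2 lies to the right for neutrophil, B lineage and dendritic cell genes, and replicate 3 lies to the left for immediate early genes.

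Among the B lineage genes, Ebf1, which starts the B program, was at 13.4, 61.9 and 12.3 CPM, the adaptor Blnk at 6.39, 62.0 and 5.25 and the coactivator Pou2af1 at 8.81, 57.6 and 9.13, and in all of them replicates 1 and 3 were close. Rag1 was at 10.5, 40.9 and 3.21 CPM and Cd79a at 1.02, 14.2 and 0.969. The other list genes that stood over 3 times higher in replicate 2 were Dntt, Il7r and Ly6d of the lymphoid list, Spib, Ly6c2 and Tlr9 of the plasmacytoid list, Cd74 and Irf4 of the dendritic list, Irf8 and Elane of the granulocyte-macrophage list, Ctss, F13a1 and Ly86 of the monocyte list, S100a9, S100a8, Ngp and Lcn2 of the neutrophil list, and the receptor Lifr. Of the genes named here, Dntt, Cd74, Ctss and Tlr9 were not over 3 times higher after removal of the width median. The named genes belong to several lineages. The summed level of B lineage genes was 1036, 1905 and 1025 TPM, of plasmacytoid dendritic cell genes 764, 1154 and 685 TPM and of neutrophil genes 164, 835 and 117 TPM. Whether cells outside the gate or a different makeup of the gate carried them was not tested.

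Without replicate 2 several medians fell. That of B lineage genes went from 14.6 to 6.93 TPM, of neutrophil genes from 14.1 to 2.92, of plasmacytoid dendritic cell genes from 22.5 to 10.9, of T lineage genes from 6.36 to 1.26 and of dendritic cell and MHC class II genes from 13.4 to 7.40. The B lineage, plasmacytoid and dendritic medians stayed above the 4.14 TPM of all genes, and the neutrophil and T lineage medians did not.

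Immediate early genes, which are transcribed within minutes of a stimulus without new protein synthesis, differed in another library. All 20 listed genes were at 5 CPM or more and over 1 TPM in every library, with medians of 289, 185 and 85.7 TPM. Replicate 3 was the lowest library for 20 of 20, against 23.6% of all genes at 5 CPM or more, and replicate 1 was the highest for 16 of 20, against 21.1%. The median log2 ratio of replicate 3 to the mean of the others was -1.47, and -1.48 after removal of the width median. Their summed level was 15894, 12495 and 4949 TPM. Without replicate 3 the list's median rose from 188 to 246 TPM, and without replicate 1 it was 135.

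The most abundant members shared this order of libraries in part. Fos, a subunit of the AP-1 factor, was at 1607, 2018 and 548 CPM and Zfp36, which destabilizes mRNAs with AU-rich elements, at 1299.6, 1139.9 and 387. Egr1 was at 2338, 1412 and 462 CPM and the MAP kinase phosphatase Dusp1 at 734, 798 and 379.9. Replicate 3 was below the others for all of these, and replicate 1 led for Egr1 and Zfp36 but not for Fos and Dusp1. Replicate 1 was over 3 times higher than both others for the orphan nuclear receptors Nr4a1, at 254, 83.0 and 44.5 CPM, and Nr4a2, at 112, 31.6 and 23.7, and for Atf3 at 59.2, 14.8 and 2.24, Egr3 at 46.8, 14.0 and 5.76 and Egr2 at 10.3, 3.02 and 1.99. Those 5 were among 10 such genes in replicate 1 (0.0939% of 10647). In replicate 3, 23 genes (0.216%) were lower than in both others by over 3 times. List genes among them were Egr1, Ier5, Klf2, Atf3, Klf4, Vcam1, Rag1, S100a9, S100a8 and Chil3. Of these list genes, Egr1 alone did not pass after removal of the width median.

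**Figure D5:**
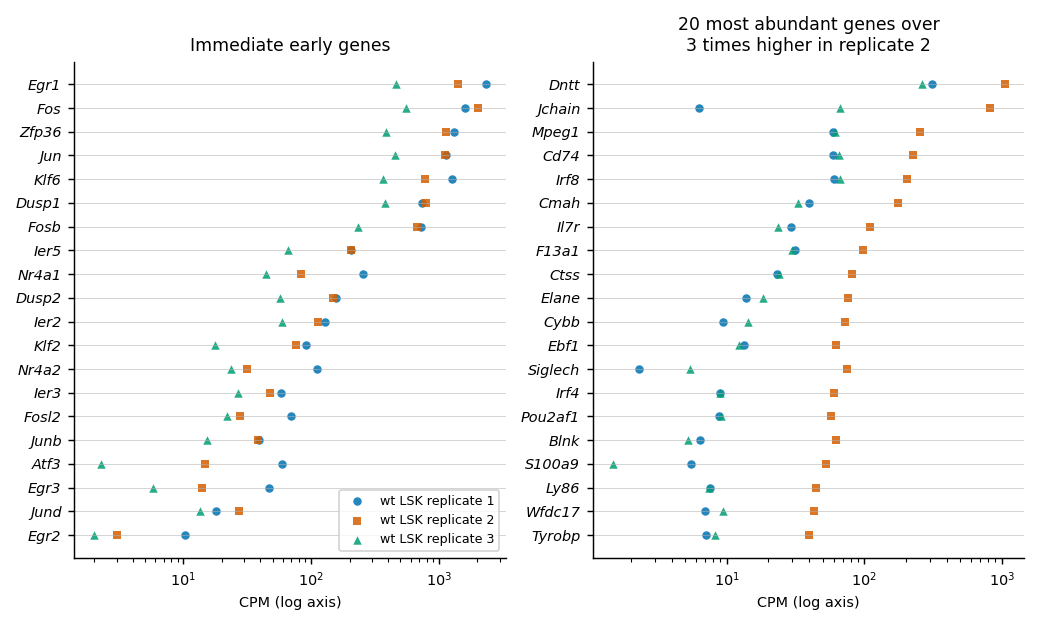
CPM on log axes, with 1 marker per library, for the 20 immediate early genes (left) and for the 20 most abundant genes over 3 times higher in replicate 2 than in both others (right). Replicate 3 is the lowest library for every gene on the left, and replicate 2 is the highest for every gene on the right, by the rule that chose them.

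These genes were low in the same library, so the 200 bases before an annotated start site are shown for 5 of them, from RefSeq on GRCm38.p6: the abundant Fos, Zfp36 and Dusp1, and Nr4a1 and Egr2, which were highest in replicate 1. Capitals mark the core of a cAMP response element (TGACG or its reverse complement CGTCA), the full palindrome TGACGTCA and a CArG box, the motif of serum response factor. Fos lies at chr12:85473690-85473889 on the plus strand, Zfp36 at chr7:28379229-28379428 on the minus strand, Dusp1 at chr17:26508473-26508672 on the minus strand, Nr4a1 at chr15:101266646-101266845 on the plus strand and Egr2 at chr10:67537669-67537868 on the plus strand. Each is written 5′ to 3′ on its gene's strand.
Fos: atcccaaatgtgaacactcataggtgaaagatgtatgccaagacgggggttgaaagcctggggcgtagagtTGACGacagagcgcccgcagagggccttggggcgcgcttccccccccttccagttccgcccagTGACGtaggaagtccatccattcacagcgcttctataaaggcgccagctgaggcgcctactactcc
Zfp36: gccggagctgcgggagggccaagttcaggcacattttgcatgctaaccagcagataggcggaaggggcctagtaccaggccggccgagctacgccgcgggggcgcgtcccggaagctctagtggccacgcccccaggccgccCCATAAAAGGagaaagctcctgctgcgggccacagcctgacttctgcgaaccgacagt
Dusp1: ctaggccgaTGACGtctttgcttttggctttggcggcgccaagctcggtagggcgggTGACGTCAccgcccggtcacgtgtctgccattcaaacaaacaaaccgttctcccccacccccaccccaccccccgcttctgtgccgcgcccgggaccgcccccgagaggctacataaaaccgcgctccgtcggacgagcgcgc
Nr4a1: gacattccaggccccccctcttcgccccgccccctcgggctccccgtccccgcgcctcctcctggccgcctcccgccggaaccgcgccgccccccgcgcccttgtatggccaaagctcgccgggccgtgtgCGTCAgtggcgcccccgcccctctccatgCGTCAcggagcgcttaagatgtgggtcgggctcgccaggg
Egr2: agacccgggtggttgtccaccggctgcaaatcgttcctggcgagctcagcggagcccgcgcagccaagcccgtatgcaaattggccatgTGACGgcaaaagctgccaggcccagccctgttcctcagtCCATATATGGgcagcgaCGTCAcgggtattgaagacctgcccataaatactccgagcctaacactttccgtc
In windows of 300 bases (250 before to 50 after the start) searched on both strands, TGACG occurred in 10 of the 17 immediate early genes with a promoter entry, against 23.0% of all 27025 genes and 37.1% of the 8578 genes at 5 CPM or more. The full TGACGTCA, which contains the core on each strand, occurred in 1, Dusp1, against 2.03% of all genes and 3.71% of those at 5 CPM or more. A CArG box occurred in Egr2 and Zfp36, against 1.81% and 1.49%. These are matches of letters in these windows and not binding sites.

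Genes outside the lists were also among the most uneven. Of the 12 genes with the largest ratio between libraries at 10 CPM or more, Rtn2, a reticulon, was highest in replicate 1 at 27.9, 8.72 and 0.867 CPM. The calcium channel gene Cacna1e was highest in replicate 2, at 12.8 ± 14.3 CPM over the libraries. Fyb2 was highest in replicate 3 at 8.27, 3.02 and 31.6 CPM, but C8a overlaps it. A gene without a symbol, NCBI gene 320189, was at 8.86, 2.30 and 23.4 CPM, also highest in replicate 3. The remaining 8 were Jchain, S100a9, Siglech, Igll1, Atf3, Rag1, Ngp and Blnk, of which only Atf3 was not highest in replicate 2.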

How the data were processed

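Gene-level counts of 3 libraries of sorted LSK cells were read from a deposited table of read counts that the authors made, with a deposited gene width in bases beside them. The submitters' processing notes name edgeR, GRCm38 and mm10. For the aligner, the counter and the definition of the width, the tool is not given in the sources used here. The widths had a median ratio of 0.863 to the GENCODE vM21 exon union of the gene. Reads of overlapping or near-identical genes may be split uncertainly.

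Symbols came from RefSeq GRCm38 for 23968 of 24028 gene identifiers. CPM used the library total and TPM the deposited width. The spread was edgeR's common BCV (filterByExpr with a minimum count of 10, TMM, intercept-only fit). On simulated data with a BCV of 0.2 put in, this fit returned 0.227. A library stood apart for a gene where it was over 3 times above or below both others at a mean of 5 CPM. Alternatives included DESeq2 size factors. Each width correction removed the median deviation of 1 of 8 width bands. Recurrence of 31-base words was counted against all other GENCODE genes.

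The genes named were the sort markers, the 12 highest by CPM and by TPM, the 4 highest members of each list and those at 0, up to 3 per family, the 12 of largest ratio between libraries and list genes standing apart; other genes were named for their known roles after their values were seen. Some genes that this rule selects are not reported here. The members and lists were chosen with earlier results of these data known, and 4 lists and some family patterns after first values were seen. Tools were R 4.3.3, edgeR 4.0.16, DESeq2 1.42.0, Python 3.11.15, pandas 2.3.3 and numpy 2.4.6.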

Additional observations from a re-analysis of the deposited data

How the results depend on the processing

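Of 72 alternative values over 19 results, 62 moved by less than the spread between replicates or 1.5 times, 10 moved by more and 0 reversed. Only the log2 ratios by list have a sign that could change, while counts, shares, medians and BCVs could not reverse. A change of order between medians was not scored. Without replicate 2 the eosinophil, basophil and mast cell median fell below the erythroid one, at 5.43 and 6.61 TPM. Of the 72 values, 12 came from 4 alternatives, on width bands and recurring words, chosen after seeing the data. The leading 100 genes held 17.7% by TPM against 15.3% by counts. Ribosomal protein genes held 0.568% of counts, and 0.655% of TPM over genes with few recurring words, against 1.93%. The 0.655% is a sum over fewer genes and would be lower for that reason alone. Eosinophil, basophil and mast cell genes had a median of 10.01 TPM over members with a count in every library, against 7.79. The number of genes differing 2-fold was 573 at a minimum of 10 CPM, 2211 at 1 CPM and 121 at 50 CPM. With 1 replicate left out, the lymphoid median ran from 125 to 191 TPM, that of eosinophil, basophil and mast cell genes from 5.43 to 7.56 TPM, and the number of 2-fold genes from 154 to 388, the lowest of each without replicate 2. Without replicate 1 that number was 272. The cause was not tested. No paired analysis was possible because a single group was described and no result came from a test. Depth limits genes near 0.0531 CPM.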

Other observations

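The lists of this section other than the interferon response genes were chosen after values of these libraries had been seen. Genes of homing and adhesion had a median of 163 TPM, and all 17 were over 1 TPM in every library (53.8% of all genes were). Cd47, the ligand that restrains macrophages, was at 2128, 2392 and 2087 TPM in replicates 1, 2 and 3. Adgrl4, an adhesion receptor, was at 996, 1108 and 1226 TPM, the sialomucin Cd164 at 754, 612 and 645 and the integrin chain Itga4 at 487, 464 and 414. Selplg, the selectin ligand, was at 120.4, 290.0 and 177 TPM, highest in replicate 2. Genes of RNA-binding regulators had a median of 75.8 TPM, with Mbnl1 at 1035, 724 and 955, the Pumilio gene Pum2 at 589, 389 and 533, the mRNA decay factor Zfp36l2 at 551, 407 and 484 and Msi2, a Musashi protein of stem cells, at 342, 249 and 346. Of the fetal regulators in this list, the chromatin protein Hmga2 was at 87.9, 92.7 and 64.8 TPM. Igf2bp3, whose span overlaps Malsu1, was at 15.9, 17.8 and 18.6 TPM and Igf2bp2 at 3.89, 5.37 and 8.02, while Igf2bp1 had 0 counts in all libraries. Lin28b was at 1.51, 0.399 and 0.519 TPM and Lin28a at 0.121, 0.164 and 0.

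Glycolysis and hypoxia genes had a median of 49.1 TPM. Ldha, the lactate dehydrogenase of glycolytic cells, led at 516, 578 and 553 TPM, ahead of Aldoa at 124, 163 and 146, Pkm at 129.6, 134 and 138 and the kinase Pdk3, which restrains entry of pyruvate into mitochondria, at 108, 87.8 and 99.3. Hif1a, the hypoxia factor of this list, was at 97.1, 82.8 and 88.6 TPM and its relative Epas1 at 2.91, 2.10 and 1.21. Imprinted genes had a median of 2.79 TPM, below the 4.14 TPM of all genes. Of these, 13 of 24 were over 1 TPM in every library, near the 53.8% of all genes. Gnas was at 241, 286 and 247 TPM, Impact at 135, 88.0 and 100.3, Kcnq1ot1, the antisense RNA that overlaps Kcnq1, at 85.5, 60.7 and 97.7 and Zrsr1 at 44.4, 42.8 and 40.8. Of the growth genes among them, Igf2 was at 0.298, 0.0450 and 0.462 TPM, H19 at 0.242, 0.0728 and 0 and Dlk1 at 0.0876, 0 and 0.285, and Slc38a4 had 0 counts in all libraries. Interferon response genes had a median of 39.9 TPM, and 20 of 20 were over 1 TPM in every library, led by Oasl2 at 209, 186 and 182, Ifi44 at 177, 113 and 139.8 and Rtp4 at 132, 128 and 101.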
